A study of Mus musculus with 7 samples.

Results

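Megakaryocyte and platelet genes were examined in haematopoietic stem cells (HSCs) of the mouse, which give rise to every blood lineage. The set held 10 genes listed by their known role, Itga2b, Itgb3, Gp1ba, Gp1bb, Gp9, Vwf, Selp, Pf4, Ppbp and Cd9, out of 28786 genes in the deposited count table. All 10 had a count in every library, and all 10 passed the filter on low counts. Cells sorted as HSCs came from the bone marrow of C57BL/6J mice aged 6 to 8 weeks, 1500 cells per library. The control group consisted of normal mice, with 3 deposited columns, and the MC38 group of mice with MC38 colon cancer, a colon carcinoma line of the same strain, with 4. The sort gates, the sex of the mice, the tumour site and the time after tumour cells were given are not stated in the sources used here, and the labels do not tie each library to an animal of its own. The p-values below therefore cover the spread between libraries only, and that spread may be technical. The study asked how a tumour biases HSCs towards myeloid cells, and these genes describe the platelet side of the same cells.

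Megakaryocytes are the marrow cells that shed platelets. Platelets attach to a damaged vessel through the glycoprotein Ib-IX complex, which binds von Willebrand factor, and aggregate through the integrin alpha IIb beta 3, which binds fibrinogen. Their alpha granules store chemokines and adhesion proteins. A part of the HSC pool carries transcripts of these genes and is biased towards the platelet lineage, and Vwf, Itga2b, Pf4 and Cd9 are used as markers of that pool or of early megakaryocyte commitment.

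Promoter sequences are given for 4 of the 5 members whose MC38 libraries lay wholly above or below the controls, and Ppbp and Pf4 are also neighbours on the same strand of chromosome 5. The sequences are RefSeq promoters of GRCm38.p6, cut to the bases before the gene start, 5′ to 3′ on the strand of the gene. The table matched 8 of the 10 members, all but Itgb3 and Vwf. Capitals mark a match on either strand. The ETS-type core searched was GGAAG. The GATA-type words were AGATAA and, with the first letter changed, TGATAA. The RUNX-type word was TGTGGT. The 3 kinds of match did not overlap one another in the windows shown. The windows were chr5:90768268-90768517 for Ppbp, chr5:90772185-90772434 for Pf4 and chr11:70638872-70639121 for Gp1ba, all on the plus strand, and chr6:125494792-125495010 on the minus strand for Cd9.
Ppbp: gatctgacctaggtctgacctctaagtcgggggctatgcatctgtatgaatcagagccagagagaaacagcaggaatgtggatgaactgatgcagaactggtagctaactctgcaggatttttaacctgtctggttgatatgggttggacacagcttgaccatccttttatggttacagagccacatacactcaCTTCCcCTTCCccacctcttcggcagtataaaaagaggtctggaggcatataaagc
Pf4: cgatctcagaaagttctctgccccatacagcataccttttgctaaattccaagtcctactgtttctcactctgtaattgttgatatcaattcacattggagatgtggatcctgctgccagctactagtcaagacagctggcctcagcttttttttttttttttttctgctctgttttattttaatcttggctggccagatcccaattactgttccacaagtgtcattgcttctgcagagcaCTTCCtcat
Gp1ba: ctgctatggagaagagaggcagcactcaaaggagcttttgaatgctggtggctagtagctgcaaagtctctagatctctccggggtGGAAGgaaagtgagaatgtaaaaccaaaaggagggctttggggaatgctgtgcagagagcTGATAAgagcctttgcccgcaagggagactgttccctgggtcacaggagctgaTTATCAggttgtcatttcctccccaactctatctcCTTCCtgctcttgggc
Cd9: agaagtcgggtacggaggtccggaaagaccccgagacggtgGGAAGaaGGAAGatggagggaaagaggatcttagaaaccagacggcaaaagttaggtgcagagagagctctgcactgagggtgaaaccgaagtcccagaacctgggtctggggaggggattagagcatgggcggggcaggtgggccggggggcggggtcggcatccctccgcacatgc
Within the 250 bases before the RefSeq start, GGAAG was found in 8 of the 8 members matched and in 64.1% of 32817 promoters searched. The GATA-type letters were found in 1 of 8, Gp1ba, which held the word 2 times, and in 16.6% of all promoters. TGTGGT was found in 1 of 8, Gp9, and in 14.0% of all promoters. These matches are letters in a window and not measured sites.

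No member passed the test between MC38 and control. With edgeR, 0 of 10 were called at an adjusted p under 0.05, where 1.61% of 14226 genes tested were called. Ppbp, Gp1ba and Cd9 were higher in every MC38 library than in both controls, and Pf4 and Vwf were lower in every MC38 library. These 5 of 10 compare with 29.0% of all genes tested whose groups did not overlap. The median log2 fold change was 0.04 over the 10 and 0.01 over all genes, with 5 members positive and 5 negative. At an unadjusted p under 0.05 there were 4 members, Cd9, Ppbp, Pf4 and Vwf, against 17.5% of all genes. Of all genes, edgeR called 1.04% higher and 0.569% lower in MC38. DESeq2 called 2 of the 10, Cd9 and Ppbp, both higher, where 7.18% of genes were called (4.40% higher, 2.78% lower). Limma-voom called 0 of the 10, where 1.27% were called (0.696% higher, 0.576% lower). With all 7 columns edgeR called 4 of the 10, Cd9 and Ppbp higher and Pf4 and Vwf lower, where 10.6% were called (5.74% higher, 4.81% lower). Without MC38 replicate 1 it called 1, Vwf, where 3.17% were called (1.86% higher, 1.31% lower). The summed level of the 10 genes was 873 and 782 CPM (counts per 1000000 after TMM scaling) in the controls and 864 to 896 CPM in MC38.

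**Figure D1:**
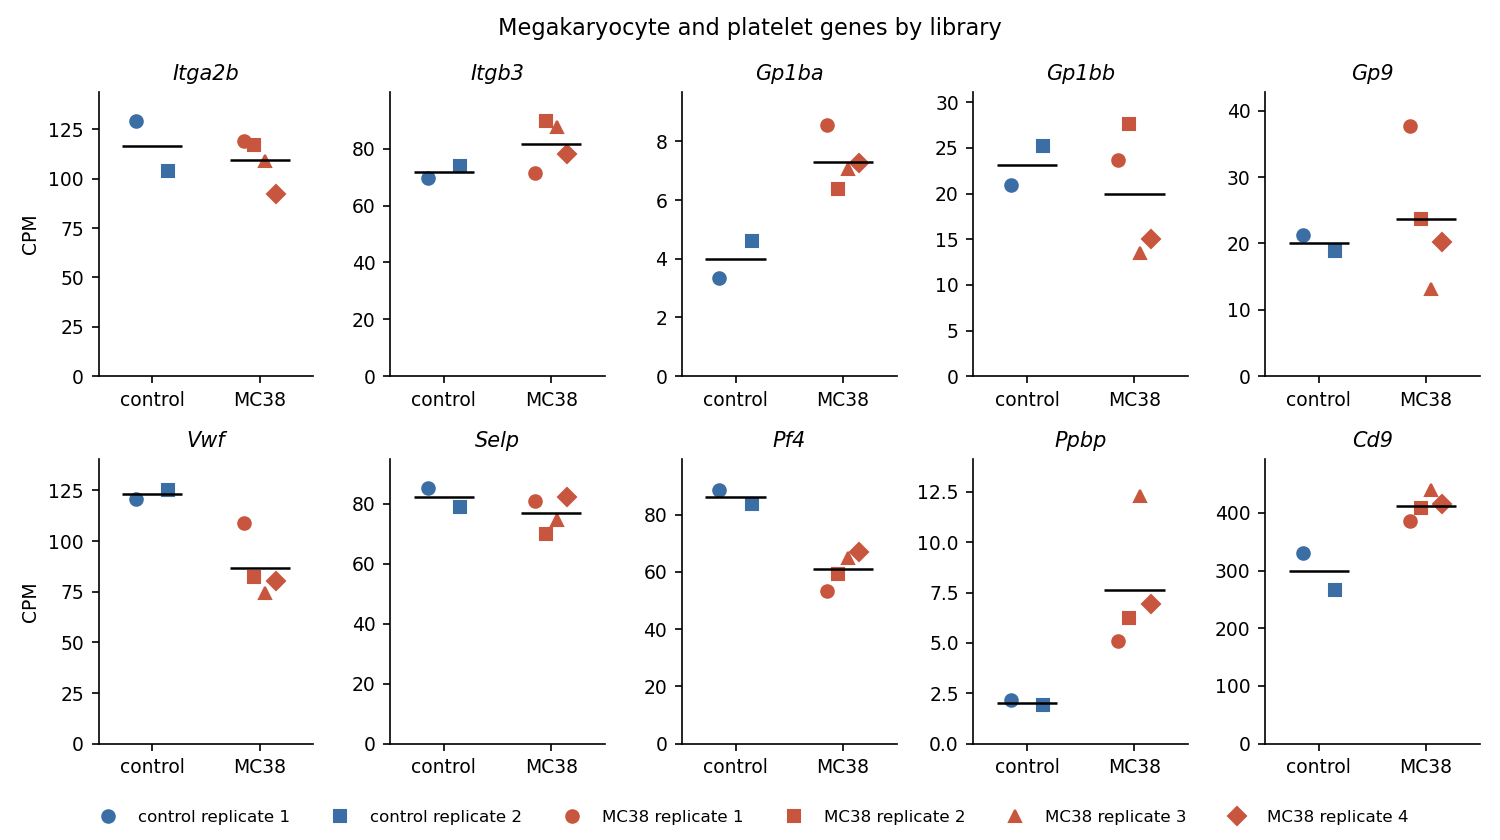
Level of each of the 10 genes in CPM on the vertical axis, by group, with a symbol per library (2 control in blue, 4 MC38 in red) and a black line at the group mean. The MC38 symbols of Ppbp, Gp1ba and Cd9 all lie above the control symbols, those of Pf4 and Vwf all lie below them, and the other 5 genes overlap.

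Libraries held 12131546 and 12306066 counts in the controls tested and 13368238 to 17657037 in MC38. Control column 3 was not used as a library, because it follows the other controls closely: over 9692 genes with at least 200 counts in control replicates 1 and 2 together, its median share of that sum was 0.353, with 95% of genes between 0.341 and 0.371. The 8 members with that many counts ran from 0.342 to 0.358. Not every gene followed: Meis1, of the stem cell list below, had 282 counts in column 3 and 2151 and 2464 in control replicates 1 and 2. The HSC label was checked against a list of 15 genes of stem cells and early progenitors, which summed to between 1894 and 1995 CPM in control and 1938 to 2066 CPM in MC38. Markers of HSCs such as Procr (81.4 and 84.8 CPM in control, 87 to 98.9 CPM in MC38) and Hlf (169 and 207, then 162 to 208 CPM) were present. Flt3 (105 and 119 CPM in control, 122 to 137 CPM in MC38) and Cd48 (36 and 59.3, then 53.4 to 67.6 CPM), which mark progenitors and are commonly used to leave cells out of an HSC gate, were also present. All 15 were tested and edgeR called 0 (1 at an unadjusted p under 0.05, DESeq2 1, limma-voom 0). In 5 of the 15 every MC38 library was above both controls, where 14.0% of all genes were, and in 0 below, where 15.0% were. The smallest p belonged to Ly6a, which encodes Sca-1, at 107 ± 18.5 and 168 ± 8.16 CPM (log2 fold change 0.65, edgeR adjusted p = 0.0522). It passed in 5 of the 13 alternatives.

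Markers of differentiating and mature blood cells were present as well. Of 12 neutrophil genes edgeR called 7 higher and 1 lower in MC38 (11 at an unadjusted p under 0.05, DESeq2 9, limma-voom 9, median 0.97). Their sum was 32393 and 33133 CPM in control and 56683 to 65080 CPM in MC38, with S100a8 and S100a9 as the most abundant. The late granule genes Ngp, Ltf, Lcn2, Retnlg and Mmp8 and both S100 genes rose, while Mpo, a gene of the promyelocyte stage, fell. Elane and Prtn3 of the same stage were also below both controls in every MC38 library (edgeR adjusted p = 0.263 and 0.173). B cell markers summed to between 151 and 152 CPM in control and 185 to 233 CPM in MC38 (edgeR called 0 of 8, with 1 at an unadjusted p under 0.05, DESeq2 1, limma-voom 0, median 0.39). T and NK cell markers had a median log2 fold change of 0.96. Of these 10, edgeR called 0 (4 at an unadjusted p under 0.05, DESeq2 2, limma-voom 0). In 4, Cd3d, Cd3g, Trac and Klrb1c, every MC38 library was above both controls, where 14.0% of all genes were. In 1, Nkg7, every MC38 library was below both, where 15.0% of all genes were. Gzma had a lower mean in MC38 with overlap (7.65 and 3.38 CPM in control, 1.41 to 4.04 CPM in MC38). The sum of the list was 422 and 488 CPM in control and 403 to 449 CPM in MC38. Most of it is Nkg7 (388 and 453, then 326 to 388 CPM, where the 388 of the groups differ before rounding). Macrophage markers summed to 62.7 and 71.8 CPM in control and 97.3 to 120 CPM in MC38, with a median of 0.97 (edgeR called 1 of 8, C1qa, higher, with 4 at an unadjusted p under 0.05, DESeq2 4, limma-voom 0). Leaving out either control ended the call of C1qa (edgeR adjusted p = 0.179 without replicate 1 and 0.0831 without replicate 2), as did leaving out MC38 replicate 2 (0.125) or 4 (0.0935). The part of these cells in the levels below was not tested. In bulk libraries, fewer cells of a type and less RNA per cell cannot be told apart.

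The 2 chains of the fibrinogen receptor overlapped between the groups. Itga2b (ENSMUSG00000034664, chromosome 11: 102453297 to 102470122, mm10), the alpha IIb chain also known as CD41, was at 129 and 104 CPM in control and at 119, 117, 109 and 92.1 CPM in MC38 replicates 1 to 4. In all, 3 MC38 libraries lay between the controls and replicate 4 lay below both. The log2 fold change was -0.10, with a 95% interval of -0.44 to 0.25 (edgeR adjusted p = 0.81). Itgb3 (chromosome 11: 104608000 to 104670476), the beta 3 chain, was at 69.9 and 74.1 CPM in control and at 71.4, 89.9, 87.8 and 78.1 CPM in MC38. MC38 replicate 1 was between the controls and the other MC38 libraries were above them. Its log2 fold change was 0.18 (95% interval -0.16 to 0.52, edgeR adjusted p = 0.584). Per length, Itga2b stood above Itgb3 in every library, by 2.00 and 1.52 times in control and by 1.28 to 1.80 times in MC38.

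The subunits of the glycoprotein Ib-IX complex were at lower CPM than the integrin chains, and none passed the test. Gp1ba (ENSMUSG00000050675, chromosome 11: 70639122 to 70642036), the chain that binds von Willebrand factor, had 40 and 56 counts in control and 93 to 127 counts in MC38. That is 3.36 and 4.62 CPM against 8.54, 6.36, 7.07 and 7.25 CPM, so that every MC38 library was above both controls. The mean was 3.99 ± 0.892 CPM in control and 7.30 ± 0.910 CPM in MC38 (SD, n = 2 and 4), a 1.83-fold difference, with a log2 interval of -0.04 to 1.78 (edgeR adjusted p = 0.31).

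Gp9 (chromosome 6: 87778072 to 87779768), the small subunit IX, was at 21.3 and 18.9 CPM in control and at 37.7, 23.7, 13.1 and 20.2 CPM in MC38. The highest and the lowest library of the 6 were both MC38, replicates 1 and 3, a 2.88-fold span. Gp1bb (chromosome 16: 18620317 to 18622403), the beta chain linked to Gp1ba, was at 21 and 25.2 CPM in control and at 23.7, 27.6, 13.5 and 15.0 CPM in MC38. MC38 replicates 3 and 4 were below both controls, and the highest value was in MC38 replicate 2. Neither passed (edgeR adjusted p = 0.807 for Gp9 and 0.799 for Gp1bb), and their intervals, -0.61 to 1.08 and -0.94 to 0.52, were wide. In GENCODE M21, 91.1% of the exon bases of Gp1bb are shared with Sept5 on the same strand. Sept5 was at 3.36 and 2.56 CPM in control and 2.39 to 7.40 CPM in MC38, and the deposited counts of Gp1bb are uncertain by what was lost or split there.

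Gp5, which completes the complex and is no member of the set, was at 17.6 and 20.7 CPM in control and at 13.2, 15.2, 10.6 and 8.29 CPM in MC38. Every MC38 library was below both controls (log2 fold change -0.70, edgeR adjusted p = 0.286). Gp1ba and Gp5 of the same receptor thus lay on opposite sides of their controls, a difference that was not tested. Per length, Gp1bb stood 8.14 and 7.09 times above Gp1ba in control and 2.48 to 5.66 times in MC38, with no overlap. Gp9 stood 19.5 and 12.6 times above Gp1ba in control and 5.71 to 13.6 times in MC38, with overlap. These ratios, like the other ratios between genes below, were chosen after the values were seen and have no test. The length used for Gp1bb, here and in the per-length values below, includes the exon bases shared with Sept5, so these levels of Gp1bb are uncertain as well.

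Vwf (ENSMUSG00000001930, chromosome 6: 125546774 to 125686679), the ligand of this complex and a marker of platelet-biased HSCs, was lower in every MC38 library. It was at 121 and 125 CPM in control and at 109, 82.5, 74.6 and 80.1 CPM in MC38. MC38 replicate 1 stood closest to the controls, and the other 3 were close to each other. Means were 123 ± 2.99 and 86.6 ± 15.6 CPM (SD, n = 2 and 4), with a log2 fold change of -0.51 (SE 0.17, 95% interval -0.89 to -0.13, edgeR adjusted p = 0.162). Without MC38 replicate 1 the adjusted p was 0.0351 in edgeR, with a log2 fold change of -0.64. Across the other 12 alternatives it ran from 0.046 (all 7 columns) to 0.427 (without control replicate 1).

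Selp, which encodes P-selectin, an adhesion receptor that platelets and endothelium store in granules and bring to the surface, overlapped between the groups. The controls were at 85.4 and 78.9 CPM, and the MC38 libraries at 80.8, 69.8, 74.7 and 82.3 CPM. MC38 replicates 1 and 4 lay between the controls and the other 2 below them. The interval of the log2 difference was -0.41 to 0.22 (edgeR adjusted p = 0.786).

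Endothelial cells also express Vwf and Selp, and of 15 endothelial markers 12 were tested and edgeR called 0 (3 at an unadjusted p under 0.05, DESeq2 1, limma-voom 0). Their summed level was 282 and 297 CPM in control and 245 to 289 CPM in MC38, most of it from genes that HSCs also express, such as Egfl7 and Tie1. Every MC38 library was above both controls in 2 of the 12, where 14.0% of all genes were. These were Emcn (15.7 and 5.94 CPM in control, 16.9 to 27.9 CPM in MC38, edgeR adjusted p = 0.249) and Stab2 (0.168 and 1.24, then 2.06 to 7.13 CPM, 0.268). In 1, Egfl7, every MC38 library was below both (edgeR adjusted p = 0.0647), where 15.0% of all genes were. Cdh5, which encodes the endothelial cadherin, had 0 and 28 counts in control and 12 to 32 in MC38. Sox17 had a count in MC38 replicate 1 alone.

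The 2 granule chemokines lay on opposite sides of the controls. Pf4 (ENSMUSG00000029373, chromosome 5: 90772435 to 90773383), platelet factor 4, was at 88.5 and 83.7 CPM in control and at 53.3, 59.4, 64.9 and 67.1 CPM in MC38. All MC38 libraries were below both controls. The means were 86.1 ± 3.37 and 61.2 ± 6.20 CPM (SD, n = 2 and 4), 1.41-fold lower in MC38, with a log2 fold change of -0.49 (SE 0.15, 95% interval -0.83 to -0.16, edgeR adjusted p = 0.137). Over the alternatives the adjusted p ran from 0.0247 (all 7 columns) to 0.442 (without control replicate 1).

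Ppbp (ENSMUSG00000029372, chromosome 5: 90768518 to 90770063), the pro-platelet basic protein from which CXCL7 is cut, had 26 and 23 counts in control and 76, 91, 221 and 94 counts in MC38. On the CPM scale these are 2.18 and 1.90 against 5.11, 6.22, 12.3 and 6.95. Every MC38 library was above both controls, and MC38 replicate 3 was the highest. The means were 2.04 ± 0.202 and 7.65 ± 3.19 CPM (SD, n = 2 and 4), 3.75-fold higher in MC38, with a log2 fold change of 1.90 (SE 0.53, 95% interval 0.72 to 3.08, edgeR adjusted p = 0.107). DESeq2 called it (adjusted p = 0.0166), and without MC38 replicate 3 the edgeR log2 fold change was 1.57 (adjusted p = 0.194).

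The gene bodies of Ppbp and Pf4 are 2.37 kb apart. Ppbp had 2.47 and 2.27 reads per 100 reads of Pf4 in control. In MC38 it had 9.60, 10.5, 18.9 and 10.4 reads. This ratio, which does not depend on the scaling of the libraries, was 5.21 times higher on average in MC38. The groups could not overlap in it, because Ppbp was above and Pf4 below both controls in every MC38 library.

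Cd9 (ENSMUSG00000030342, chromosome 6: 125460266 to 125494791), a tetraspanin of platelets and megakaryocytes that is also found on HSCs and many other cells, was the most abundant member. It was at 331 and 266 CPM in control and at 385, 408, 439 and 415 CPM in MC38. All MC38 libraries were above both controls, and they differed from each other less (22.3 CPM, SD) than the controls did (46.2 CPM, SD). The log2 fold change was 0.46 (SE 0.13, 95% interval 0.18 to 0.75, edgeR adjusted p = 0.102), a 1.38-fold difference. DESeq2 called it (adjusted p = 0.00956), and the highest adjusted p of the alternatives was 0.328, without control replicate 2. Cd9 lies 52.0 kb from Vwf and on the other strand. Cd9 had 2.73 and 2.12 reads per read of Vwf in control and 3.52 to 5.89 in MC38. Here too the groups could not overlap, because Cd9 was above and Vwf below both controls in every MC38 library.

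**Figure D2:**
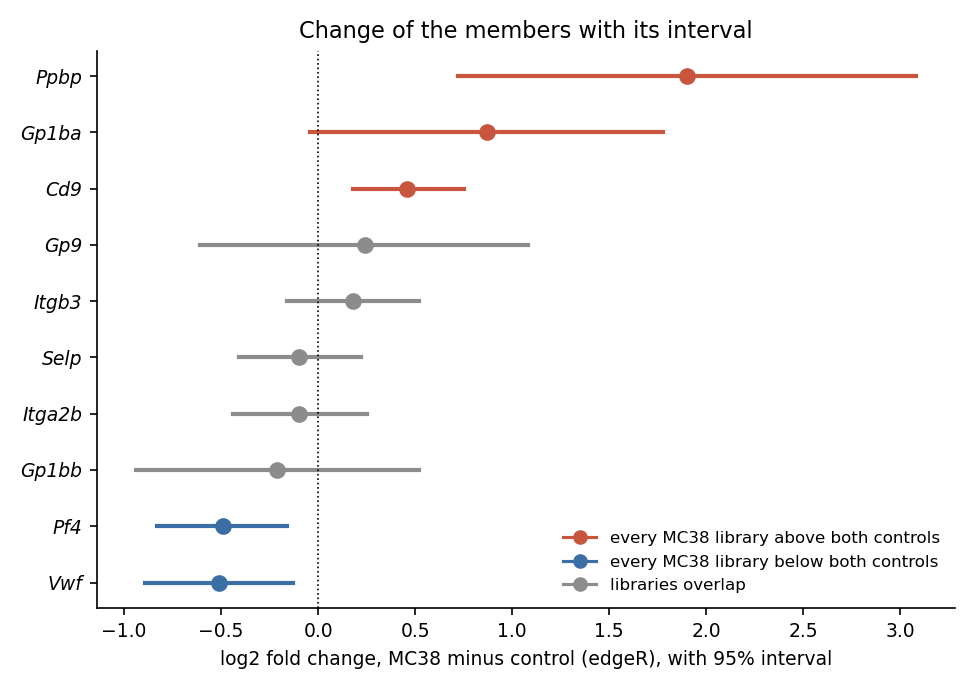
Log2 fold change of each member (points, MC38 minus control, edgeR) with its 95% interval (lines), coloured by whether the MC38 libraries lie above, below or among the controls. Intervals of Ppbp, Cd9, Pf4 and Vwf leave out 0 before adjustment over all genes, and Ppbp has the largest estimate at 1.90.

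**Figure D3:**
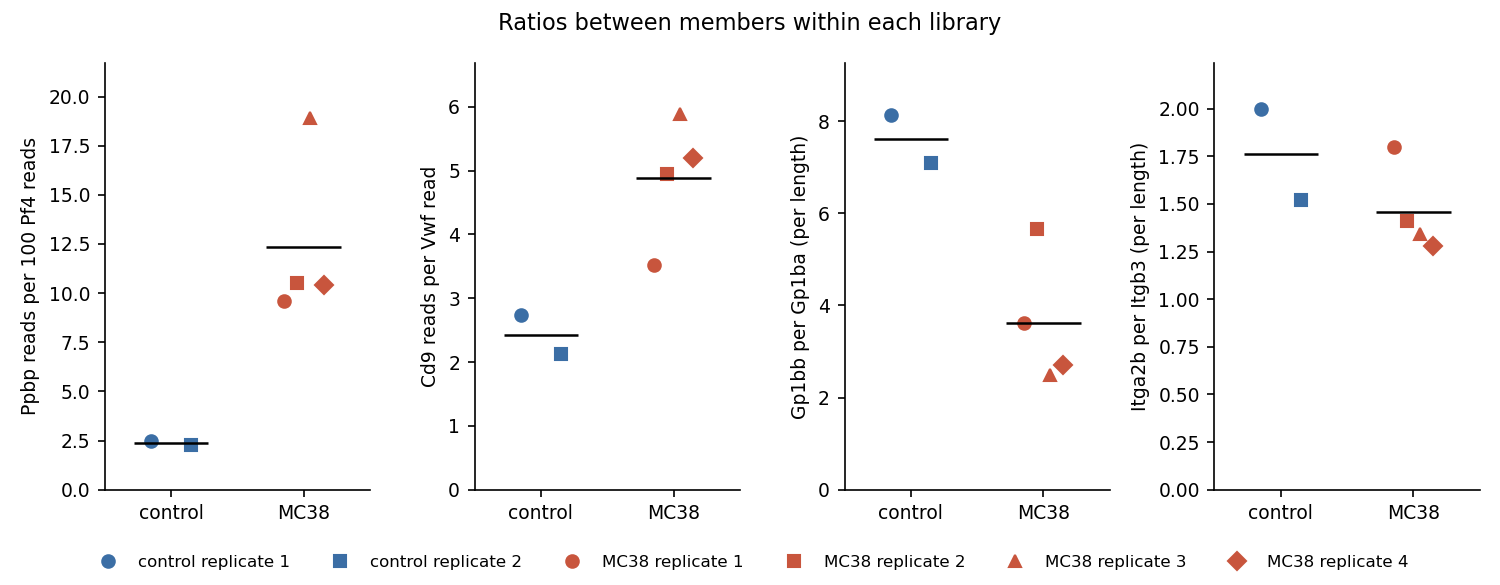
Ratio between 2 members in each library, with a symbol per library and a black line at the group mean; the 2 panels on the right are per length. Ppbp per 100 Pf4 reads goes from 2.27 and 2.47 in control to between 9.60 and 18.9 in MC38, while Itga2b per Itgb3 overlaps between the groups.

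The members spanned about 2 orders of magnitude in level. Per kilobase of exon (RPKM), the order in control was Cd9 (146 ± 22.6), Pf4 (119 ± 4.68), Gp9 (22.8 ± 1.89), Itga2b (21.4 ± 3.29), Selp (18.6 ± 1.05), Itgb3 (12.2 ± 0.506), Gp1bb (11.1 ± 1.41), Vwf (7.68 ± 0.186), Ppbp (1.89 ± 0.187) and Gp1ba (1.47 ± 0.328; SD, n = 2). Cd9 and Pf4, Gp9 and Itga2b, Itga2b and Selp, Itgb3 and Gp1bb, and Ppbp and Gp1ba had ranges of mean ± SD that overlap. That overlap leaves aside that both genes of a pair were measured in the same libraries, and the order within each pair was not tested. In MC38, Cd9 was at 201 ± 10.9 RPKM and Pf4 at 84.8 ± 8.60 RPKM (SD, n = 4). Ppbp, at 7.06 ± 2.95 RPKM, was above Vwf, at 5.39 ± 0.970 RPKM, in mean but not beyond the spread. The spread among the MC38 libraries differed widely between members. The coefficient of variation was 5.41% for Cd9 and 7.49% for Selp, and 34.2% for Gp1bb, 41.7% for Ppbp and 43.7% for Gp9.

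Of the late platelet genes in the lists, 4 were at or near 0 counts in most libraries and were picked out after their counts were seen. Gp6, the platelet collagen receptor, was at 0 counts in all 6 libraries, which allows up to 0.170 to 0.247 counts per 1000000 of a library's total (3 counts per library, counting error only). Mpig6b, an inhibitory receptor of megakaryocytes, had 1 count in MC38 replicate 3 and none elsewhere. Tubb1, the platelet beta-tubulin, had 27 counts in MC38 replicate 3 and 0 in the other 5 libraries. Myl9, a myosin light chain of platelets, had 5 counts in MC38 replicate 4 alone. MC38 replicate 3 was thus the library with the highest Ppbp and the highest Tubb1, and whether cells of the megakaryocyte lineage in that library bear on Ppbp was not tested. That library was also the highest of the 6 in Cd9, in the granule genes F5 and Mmrn1 and in the receptor gene P2ry12. It was the lowest in Gp9, Gp1bb and Vwf, and all of these were picked after their values were seen. Gp6, Mpig6b, Tubb1 and Myl9 did not pass the filter and are given by their counts. Other late platelet genes were present: besides Gp9 and Gp5, P2rx1, an ATP-gated channel of platelets, was at 28.1 and 28.2 CPM in control and 16.1 to 21.3 CPM in MC38 (edgeR adjusted p = 0.22). Treml1, a receptor of alpha granules, had 33 and 134 counts in control and 76 to 147 in MC38, and Clec1b, the podoplanin receptor CLEC-2, had 39 and 46 counts in control and 62 to 95 in MC38.

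Other genes of the platelet lineage were looked at in 6 lists with 118 different genes, of which 110 were tested. Of these, 1 rose and 1 fell (1.82%, against 1.61% of all genes), and 30 of the 110 had an unadjusted p under 0.05. For the counts of every list, the shares over all genes were 17.5% at an unadjusted p under 0.05 in edgeR, 7.18% called by DESeq2 and 1.27% called by limma-voom. The median log2 fold change of the 110 genes was 0.10.

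Among 19 megakaryocyte transcription factors edgeR called 0 and the median log2 fold change was 0.01 (3 with an unadjusted p under 0.05, DESeq2 1, limma-voom 0). Gata2, a factor of stem cells and early megakaryocytes, was at 321 ± 33.9 and 228 ± 16.6 CPM (log2 fold change -0.50, edgeR adjusted p = 0.0726). Gfi1b, a repressor required in megakaryocyte and erythroid cells, was at 59.6 ± 16.2 and 41.4 ± 2.91 CPM (adjusted p = 0.198, edgeR). Nfe2, which drives platelet release, had 389 ± 49.0 and 314 ± 33.8 CPM (edgeR adjusted p = 0.268). In 5 of the 19 every MC38 library was below both controls, where 15.0% of all genes were, and in 0 above, where 14.0% were. Gata2 passed in 3 alternatives, with DESeq2 (adjusted p = 0.00561), with all 7 columns (0.0106) and with the replicate block (0.0161).

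Thrombopoietin is the main growth factor of megakaryocytes and also acts on HSCs. None of the 16 tested genes of its signalling pathway was called with edgeR (3 at an unadjusted p under 0.05, DESeq2 3, limma-voom 0, median 0.14). Cish, a feedback inhibitor that STAT5 induces, was at 48.2 ± 3.99 and 78.5 ± 4.05 CPM (log2 fold change 0.70, edgeR adjusted p = 0.0516). Lyn, a Src family kinase, was at 60.1 ± 3.55 and 87.5 ± 6.93 CPM (0.101), and the adaptor Crkl at 17.5 ± 4.20 and 6.07 ± 1.76 CPM (0.0737). Of the 13 alternatives, Cish passed in 4 (DESeq2 adjusted p = 0.000632), Crkl in 4 and Lyn in 2. Thpo itself had no count in any library.

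In the list of other platelet receptors and their proximal signalling, edgeR called 1 of 29 tested genes (median 0.10). At an unadjusted p under 0.05 there were 7, and DESeq2 called 2 and limma-voom 1. Every MC38 library was above both controls in 5 of the 29 and below both in 4, where 14.0% and 15.0% of all genes were. Fcer1g, the ITAM adaptor through which glycoprotein VI signals in platelets, and which mature myeloid cells also use, rose from 297 ± 11.5 to 562 ± 38.7 CPM (edgeR adjusted p = 0.00444). Its partner Gp6 was at 0, as given above, and the neutrophil markers were higher in the same libraries. Which cells the Fcer1g reads came from was not tested. The call was lost without control replicate 1 (0.0797) and without control replicate 2 (0.0745). Plcg2, a phospholipase downstream of ITAM receptors, was at 117 ± 5.07 and 156 ± 10.7 CPM (0.132), and Pecam1, an adhesion receptor of platelets and endothelium, at 42.7 ± 3.12 and 57.4 ± 3.50 CPM (0.207). They passed in 2 and 1 of the 13 alternatives.

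With edgeR, 0 were called of 24 tested genes of granule content and secretion (8 at an unadjusted p under 0.05, DESeq2 2, limma-voom 0, median 0.14). In 8 of them every MC38 library was above both controls, where 14.0% of all genes were. In 2, every MC38 library was below both, where 15.0% of all genes were. These were F13a1, at 13.3 ± 0.658 and 4.85 ± 2.94 CPM (edgeR adjusted p = 0.196), and Timp3, at 26.6 ± 1.14 and 20.8 ± 3.63 CPM (0.487). Ccl5, a chemokine of platelets and T cells, was at 63.9 ± 8.87 and 107 ± 15.6 CPM (edgeR adjusted p = 0.0686). F5, coagulation factor V, was at 8.64 ± 4.17 and 22.6 ± 6.97 CPM (0.119), and Stx11, a syntaxin of platelet secretion, at 11.2 ± 0.257 and 19.5 ± 2.83 CPM (0.172). Of the 13 alternatives, Ccl5 passed in 5, F5 in 3 and Stx11 in 1.

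Of 17 tested cytoskeleton genes edgeR called 1 (7 at an unadjusted p under 0.05, DESeq2 5, limma-voom 1, median 0.00). Every MC38 library was above both controls in 5 of them and below both in 4, where 14.0% and 15.0% of all genes were. Rhob, a small GTPase that regulates actin, fell, with means of 532 ± 12.1 CPM in control and 317 ± 23.0 CPM in MC38 (edgeR adjusted p = 0.0105), a call lost without control replicate 1 (0.113), control replicate 2 (0.0961) or MC38 replicate 2 (0.0543). Tpm4, a tropomyosin of platelet formation, was at 35.4 ± 5.09 and 60.7 ± 9.35 CPM (0.0857), and Tmsb4x, the actin-binding thymosin beta 4, at 4793 ± 141 and 6192 ± 215 CPM (0.0936). Tpm4 passed in 4 of the 13 alternatives and Tmsb4x in 2.

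Among 14 further markers of platelet-biased HSCs edgeR called 0 (3 at an unadjusted p under 0.05, DESeq2 1, limma-voom 0, median 0.10). Besides Gp5, the smallest p values belonged to Nupr1, at 263 ± 27.2 and 352 ± 23.3 CPM (edgeR adjusted p = 0.115), and Fhl1, at 22.6 ± 4.13 and 36.4 ± 6.94 CPM (0.185). Of the 14, 4 had every MC38 library above the controls and 2 had every one below, where 14.0% and 15.0% of all genes did. Nupr1 passed in 2 of the 13 alternatives and Fhl1 in 1.

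Erythroid genes, the sister lineage of megakaryocytes, had a median of -0.42, and 0 of 19 tested were called by edgeR (7 at an unadjusted p under 0.05, DESeq2 0, limma-voom 0). In 8 of them every MC38 library was below both controls, where 15.0% of all genes were. In 1, Tfrc, every MC38 library was above both, where 14.0% of all genes were. The smallest p values belonged to Tspan33, a tetraspanin of erythroid progenitors (log2 fold change -0.92, edgeR adjusted p = 0.152), Rhd, a blood group protein (-1.10, 0.177), and Klf1, the erythroid factor that opposes the megakaryocyte fate (-0.80, 0.193). Klf1 was at 64.6 and 28.3 CPM in control and 24.4 to 28.3 CPM in MC38, so that control replicate 1 stood apart. Without that library its log2 fold change was -0.09 (edgeR adjusted p = 0.924). Without control replicate 2 that of Tspan33 was -0.58 (edgeR adjusted p = 0.478).

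**Figure D4:**
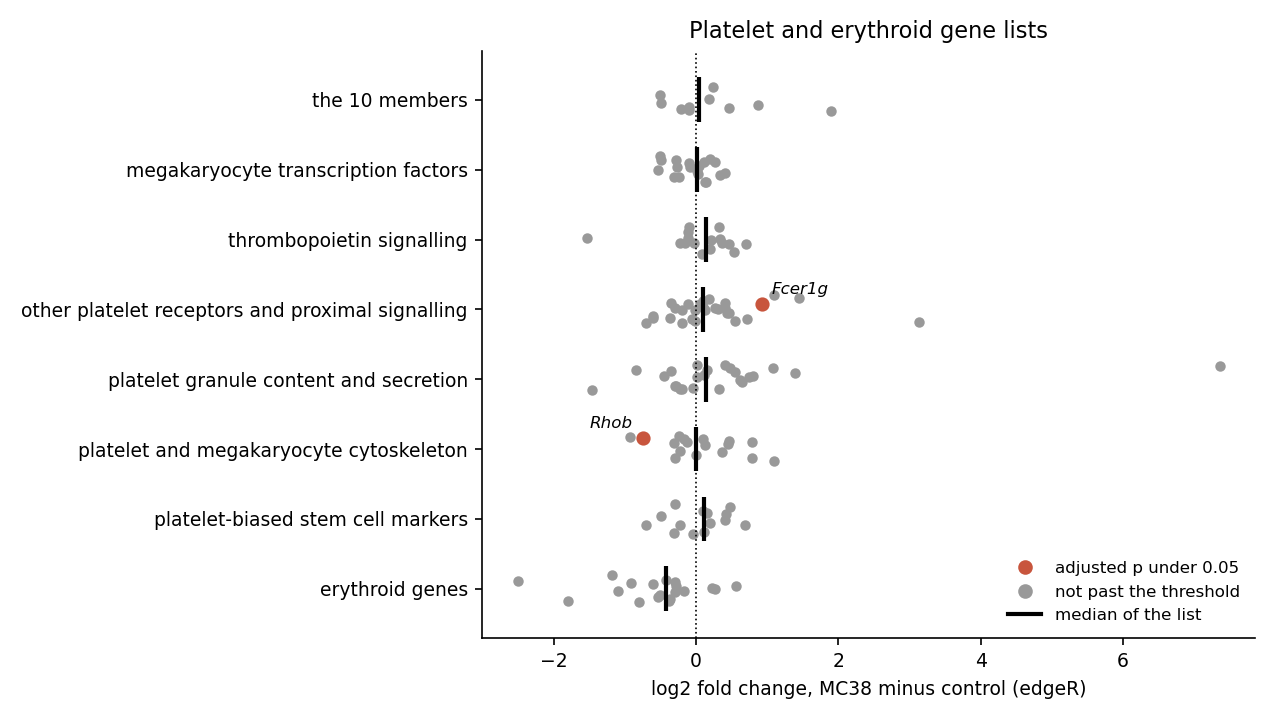
Log2 fold change of each tested gene (points, MC38 minus control, edgeR) in the 10 members and 7 further lists, with a black line at the median of each list; jitter along the vertical axis has no meaning. The called genes are Fcer1g and Rhob, and the medians lie near 0 except for the erythroid genes at -0.42. The point far to the right is Cxcl3, which had no count in the controls, so its fitted value depends on the prior count.

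The 3 members with the highest CPM, Cd9, Itga2b and Vwf, were compared in pattern with 10308 other genes of at least 5 CPM, by the root mean square difference of the centred log2 CPM over the 6 libraries. Nearest to Cd9 were Khdc4 (0.012), Zfp655 (0.037) and Syne2 (0.039), where the median over all candidates was 0.37. Nearest to Itga2b were Tbce (0.045), Ppp4c (0.047) and Nop53 (0.054), against a median of 0.33. Nearest to Vwf were Ing2 (0.072), Rbmx2 (0.076) and Prkcsh (0.083), against a median of 0.41. None of these 9 genes is in the platelet lists. They are the closest of many genes over few libraries and serve as a description.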

How the data were processed

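RNA of cells sorted as HSCs was measured in 7 deposited columns. The authors deposited read counts per Ensembl gene, made with Trim Galore 0.5.0, STAR 2.6.1 and HTSeq 0.10.0 on mm10, per the submitters' processing notes. Annotation release, strand setting and filters were not given in the sources used here, so reads of overlapping genes are uncertain. The protocol in the labels amplified cDNA with 12 PCR cycles and names no molecular identifiers. Symbols, exon lengths and coordinates came from GENCODE M21 (GRCm38), which named 27728 of 28786 gene IDs. Of 225 list entries 1 symbol was not matched.

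The 2 control and 4 MC38 libraries were compared in edgeR 4.0.16 (R 4.3.3) with TMM, filterByExpr, the robust quasi-likelihood test, two-sided, no block, and Benjamini-Hochberg adjustment over 14226 genes at 0.05. Intervals are 95% intervals from the log2 fold change and its SE, the size of the fold change over the square root of F. Adjusted p-values are edgeR's unless another tool is named. Alternatives used DESeq2 1.42.0, limma-voom (limma 3.58.1), DESeq2 size factors, other filters, all 7 columns, the replicate block and leaving out each library. The edgeR fit was tested on simulated data. Members and lists were chosen with earlier results of these data known. The rule for named genes took the 10 members and, of the 13 other lists, called genes and the 3 of smallest p. Lists of other cell types are given mainly by counts, so not every such gene is named. Others were named after their values were seen, among them Sept5, the near-0 genes and the markers of progenitors and mature cells.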

Additional observations from a re-analysis of the deposited data

Results flagged for a closer look

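Of 54 named genes checked for a library apart from the other 3 in the MC38 group, 1 was found, and chance gives about 1 in 20 such groups. Stab2, an endothelial scavenger receptor, was at 7.13 CPM in MC38 replicate 1 and at 2.06 to 2.81 CPM in the other MC38 libraries, a gap of 0.852 of the whole range that is above Dixon's 95% critical value for 4 samples. None of the 10 megakaryocyte and platelet members had such a library in MC38. The controls, with 2 libraries, were not checked.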

How the results depend on the processing

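For the 10 members, 119 of 130 values under the 13 alternatives kept their direction and their side of the threshold, 7 passed it and 4 reversed. DESeq2 called 2 members and all 7 columns called 4 (Cd9 and Ppbp higher, Pf4 and Vwf lower). Leaving out 1 library called 0 to 1, the 1 being Vwf without MC38 replicate 1. Itga2b had a log2 fold change of 0.02 with the replicate block and 0.07 without control replicate 1 (-0.24 to 0.07 with 1 library left out), Gp1bb had 0.16 with the replicate block, and Gp9 had -0.09 without MC38 replicate 1 (-0.09 to 0.44 with 1 library left out). Over all genes, 229 were called in the fit reported, 1021 with DESeq2, 504 with no filter on low counts, 1454 with all 7 columns, 459 with the replicate block, and 60 to 442 with 1 library left out. The lowest, 60, was without control replicate 1, followed by 83 without control replicate 2, 97 without MC38 replicate 2 and 108 without MC38 replicate 4. The highest, 442, was without MC38 replicate 1. Of the 191 tested genes of the other lists, 11 were called, against 32 with DESeq2, 21 with no filter, 38 with all 7 columns, 23 with the replicate block and 5 to 15 with 1 library left out, the 5 without control replicate 1. The cause of these shifts was not tested. Of 572 values of 44 genes named by rule from those lists, 492 kept their side of the threshold, 62 passed it only in the alternative, 18 lost it and 0 reversed. Column 3 follows the other controls, so the fit with all 7 columns has a control spread that is too small. The replicate numbers are shared by 2 pairs only, and same-numbered libraries had correlations of their deviations of 0.0606 and -0.0173, so they share a number and nothing more is known of a pairing; the block called 0 of the 10 members. Low counts limit Ppbp and Gp1ba, with 23 to 56 counts in the controls.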
